A study of Mus musculus with 10 samples.

Results

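The 9 genes described here encode the TFEB family of transcription factors and the folliculin and Rag proteins that hold them in check at the lysosome. They are Tfeb, Tfe3 and Mitf, then Flcn, Fnip1 and Fnip2, and then Rraga, Rragc and Rragd. They were taken by symbol from a count table of 33212 genes, and all 9 had enough counts to be tested. Transcripts were measured by sequencing of polyadenylated RNA from αTC1, an established mouse islet tumour line with the features of α cells, the cells that secrete glucagon, kept in low-glucose medium. One group of 5 libraries came from cells treated with enzalutamide, a blocker of the androgen receptor given in prostate cancer, at 10 μM for 48 h. The other group of 5 came from cells kept in the solvent DMSO for the same time, and all libraries come from the same single line, so the labels give no other genotype or strain. The labels call the libraries biological replicates without saying whether they were separate cultures or days, so the p-values refer to the spread among the libraries, which may be technical.

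TFEB, TFE3 and MITF are basic helix-loop-helix leucine zipper factors that bind E-box letters in the promoters of lysosomal and autophagy genes, a set known as the CLEAR network (coordinated lysosomal expression and regulation). In cells with ample amino acids, Rag GTPases on the lysosome, each a RagA or RagB paired with a RagC or RagD, bring these factors to the kinase complex mTORC1, which phosphorylates them and keeps them in the cytoplasm. Folliculin (Flcn), bound to FNIP1 or FNIP2, switches RagC and RagD into the form that binds the factors. The genes for RagC, RagD, folliculin and the FNIP proteins are themselves known targets of the factors, which closes a feedback loop. Protein amount, phosphorylation and location were not measured in these libraries.

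Totals were between 59557697 and 68603842 counts per library and did not differ between groups beyond the spread between libraries (exact two-sided permutation test, p = 0.262, n = 5 each). The 9 genes held between 639 and 11359 counts in each library. A count of 0 allows up to 3 counts, or 0.0439 to 0.0497 CPM (counts relative to the TMM-scaled library size). That limit covers counting error only. Of 8 α cell marker genes all were detected and 5 fell (18.8% of all genes tested fell), among them Gcg, the glucagon gene (-0.85 on the log2 scale), Ttr (-1.22) and the amino acid transporter gene Slc38a5 (-0.99). Their summed level was 19392 to 20631 CPM in DMSO and 11431 to 12737 CPM in enzalutamide. Summed levels of 6 markers of other islet cells were 1.44 to 1.94 and 1.05 to 1.61 CPM, with Ins1, Pdx1, Sst and Ppy at 0 counts in all libraries. Those of 7 markers of cells outside the islet were 6.69 to 9.29 and 5.40 to 9.32 CPM, with the leukocyte gene Ptprc at 0. Most of that sum was Cela1 (means of 6.73 CPM in DMSO and 6.11 CPM in enzalutamide). The collagen gene Col1a2 was lower (log2 fold change -1.44, SE 0.367) but scarce, with means of 1.06 and 0.394 CPM. The mitochondrial genome gave 6.33 ± 0.188% of DMSO counts and 7.41 ± 0.268% of enzalutamide counts (SD, n = 5 each; exact permutation test, p = 0.00794). The part of these shifts in the results below was not tested. Enzalutamide libraries 2 and 5 stood apart from the rest of their group. Pairs with either differed by a chi-square per degree of freedom of 15 to 35.3 over genes, against 8.98 to 10.1 among the other 3 and 9.3 to 13.4 in DMSO, and library 2 had the highest mitochondrial share (7.88%). In bulk RNA, fewer cells expressing a gene and less of its RNA per cell cannot be told apart.

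Enzalutamide-treated αTC1 cells had more transcript of the folliculin complex and of RagC and RagD, while no change of Tfeb, Tfe3 or Mitf passed the test. Rragd rose 1.38-fold, Fnip2 1.32-fold, Flcn 1.26-fold, Fnip1 1.205-fold and Rragc 1.10-fold. Rraga fell to 0.923 of its DMSO level, just inside the threshold. By edgeR's quasi-likelihood test, 6 of the 9 genes had a Benjamini-Hochberg adjusted p under 0.05, against 37.8% of the 14156 genes tested. That share includes genes scarcer than these 9. In a fit of the 11856 genes with a mean CPM of 1 or more, 5355 were called, a larger share. The 5 that were higher compare with 19% of all genes called higher, and the 1 that was lower with 18.8%. The groups did not overlap for 4 of the 9, against 26.8% of all genes, and in those 4 each treated library was above each DMSO library, against 13.1%. Without enzalutamide libraries 2 and 5 the same 5 genes rose, with log2 fold changes of 0.45 (Rragd), 0.43 (Fnip2), 0.34 (Flcn), 0.25 (Fnip1) and 0.15 (Rragc), and the Rraga log2 fold change did not pass (adjusted p = 0.0899). The median log2 fold change of the 9 was 0.15, beside 0.00673 over all genes tested.

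**Figure D1:**
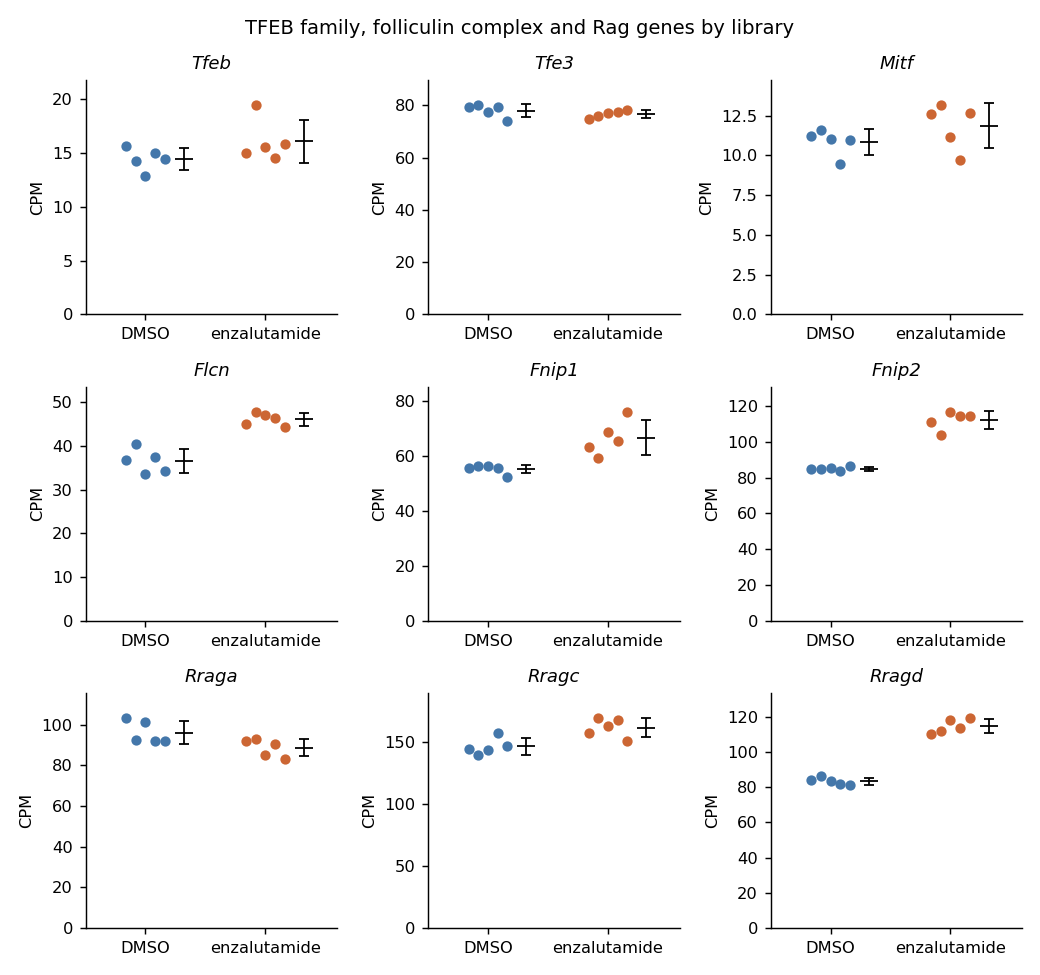
Transcript level (CPM, axis from 0) of each of the 9 genes in the 5 DMSO and 5 enzalutamide libraries; points are libraries in order of replicate number and the bar beside them is the mean ± SD. The groups do not overlap for Flcn, Fnip1, Fnip2 and Rragd, and they overlap for the other genes.

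Among the factors, Tfe3 was the most abundant and the flattest. Tfe3, which encodes a factor also known from fusions in renal cancer (ENSMUSG00000000134; chromosome X, 7762560 to 7775202 of GRCm38/mm10), was at 79.4, 80.2, 77.4, 79.2 and 73.9 CPM in DMSO libraries 1 to 5. In enzalutamide libraries 1 to 5 it was at 74.9, 75.8, 77.2, 77.5 and 78.4 CPM. All 5 treated values lay within the DMSO range. The log2 fold change of Tfe3 was -0.02 (95% interval -0.096 to 0.049, adjusted p = 0.64). With libraries scaled to total counts alone it was 0.01, and with per-library trends in transcript GC content and length removed it was -0.10 with an adjusted p of 0.0262.

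Tfeb, the factor after which the pathway is named (ENSMUSG00000023990; chromosome 17, 47737030 to 47792419), was at 15.7, 14.3, 12.8, 15.0 and 14.4 CPM in DMSO. In enzalutamide it was at 15.0, 19.5, 15.5, 14.5 and 15.8 CPM. Library 2 of enzalutamide stood above the other 9, library 5 lay just above the DMSO range, and libraries 1, 3 and 4 lay inside it. The log2 fold change of Tfeb was 0.15 (95% interval -0.016 to 0.32, adjusted p = 0.15) and 0.08 without enzalutamide library 2 (adjusted p = 0.433). The interval leaves room for a rise of up to 0.32 on the log2 scale.

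Mitf, which directs melanocyte development (ENSMUSG00000035158; chromosome 6, 97807052 to 98021349), was at 11.2, 11.6, 11.0004, 9.46 and 10.95 CPM in DMSO and at 12.6, 13.2, 11.1, 9.69 and 12.7 CPM in enzalutamide. Its groups overlapped, with 3 treated libraries above every DMSO library and library 4 lowest in each group. Mitf differed by 0.13 on the log2 scale (95% interval -0.055 to 0.31, adjusted p = 0.274), and 0.08 without DMSO library 4. Counts summed over a gene do not separate Mitf's several promoters. Of 10 melanocyte markers, 6 had 0 counts in every library, among them the tyrosinase gene Tyr. The summed level of the 10 was 5.05 to 6.38 CPM in DMSO and 4.77 to 5.83 CPM in enzalutamide. Most of that sum was Slc24a5 (means of 5.55 CPM in DMSO and 5.22 CPM in enzalutamide). Tfec, the remaining gene of the family, had 0 counts in all 10 libraries. At an unadjusted p under 0.05 the count of changed factors was also 0 of 3, as it was with DESeq2 and with limma-voom.

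All 3 genes of the folliculin complex rose. Flcn, the folliculin gene that is mutated in Birt-Hogg-Dubé syndrome (ENSMUSG00000032633; chromosome 11, 59791408 to 59810016), was at 36.6, 40.3, 33.5, 37.5 and 34.2 CPM in DMSO. It was at 44.9, 47.8, 47.0, 46.3 and 44.2 CPM in enzalutamide. The lowest treated library was above the highest DMSO library. On the log2 scale Flcn rose by 0.34 (SE 0.0514, adjusted p = 5.43e-05).

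Fnip2, a folliculin partner (ENSMUSG00000061175; chromosome 3, 79455974 to 79567796), was at 84.5, 84.7, 85.1, 83.5 and 86.7 CPM in DMSO and at 111, 104, 117, 114 and 115 CPM in enzalutamide. The DMSO values lay close together (SD 1.17 CPM) and far below the treated ones, of which library 2 was lowest. Its log2 fold change was 0.40 (SE 0.0359, adjusted p = 1.52e-07). Fnip1, the other partner and a substrate of the energy-sensing kinase AMPK (ENSMUSG00000035992; chromosome 11, 54438199 to 54518235), was at 55.6, 56.5, 56.2, 55.5 and 52.5 CPM in DMSO. It was at 63.3, 59.4, 68.9, 65.3 and 76.1 CPM in enzalutamide. The groups did not overlap, but the treated libraries were far more spread (SD 6.32 against 1.62 CPM), with library 5 highest and library 2 lowest. The log2 fold change of Fnip1 was 0.27 (SE 0.0547, adjusted p = 0.000828), and without enzalutamide library 5 the Fnip1 log2 fold change was 0.22 (adjusted p = 0.00105).

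Among the Rag GTPases the RagC and RagD genes rose. Rragd (ENSMUSG00000028278; chromosome 4, 32983037 to 33022180) was at 84.0, 86.4, 83.2, 81.9 and 81.1 CPM in DMSO and at 110, 112, 118, 113 and 119 CPM in enzalutamide. Every treated library was well above every DMSO library. Its log2 fold change was 0.46 (SE 0.0341, adjusted p = 1.47e-08), and 86.6% of all genes tested had a smaller absolute change. Rragc (ENSMUSG00000028646; chromosome 4, 123917446 to 123936997) was at 144, 140, 144, 157 and 147 CPM in DMSO and at 157, 169, 163, 168 and 151 CPM in enzalutamide. Its groups overlapped, since DMSO library 4 reached the level of treated library 1 and was above treated library 5. Rragc rose by 0.14 on the log2 scale (SE 0.0393, adjusted p = 0.00876). An antisense gene, 4930535I16Rik, shares 264 bases of exon with Rragc, and its 0 to 13 counts were at most 0.114% of Rragc's in any library.

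Rraga (ENSMUSG00000070934; chromosome 4, 86575668 to 86577285), a gene without introns whose product pairs with RagC or RagD, was at 103, 92.4, 101, 91.9 and 91.8 CPM in DMSO. It was at 92.0, 92.8, 85.3, 90.3 and 83.1 CPM in enzalutamide. DMSO libraries 1 and 3 were high, and the other 3 DMSO values lay inside the treated range. The log2 fold change of Rraga was -0.12 (SE 0.0444, adjusted p = 0.0493). The call was lost in 10 of 19 alternatives, with adjusted p up to 0.166 under total-count scaling and 0.125 and 0.133 without DMSO library 1 or 3. Without enzalutamide library 3, 4 or 5 it was 0.12, 0.0652 and 0.109. Rragb, the paralog that can take the place of Rraga (chromosome X, 153139981 to 153171943), averaged 36.7 ± 1.94 CPM without the drug and 35.9 ± 2.57 CPM with it (-0.03 on the log2 scale, 95% interval -0.15 to 0.083, adjusted p = 0.685). The Rragb log2 fold change was 0.00111 with total-count scaling and 0.00368 without enzalutamide library 5.

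**Figure D2:**
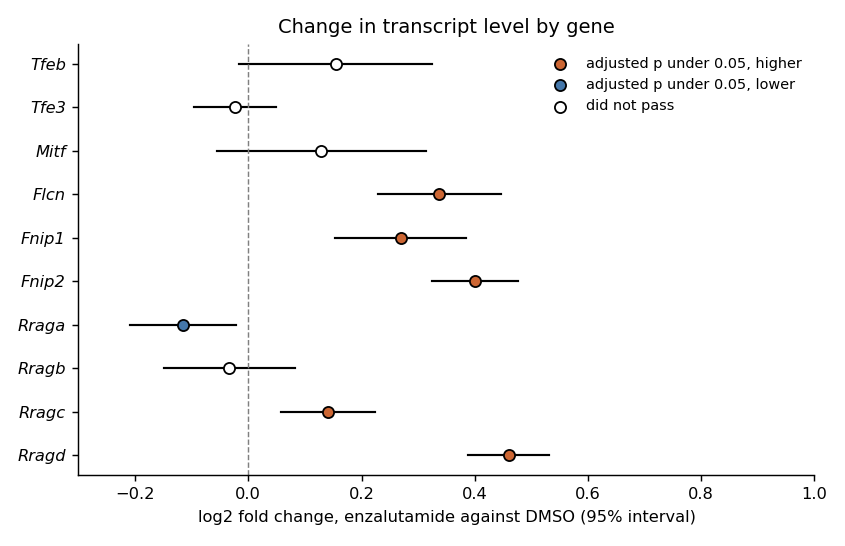
Log2 fold change of the 9 genes and of Rragb, enzalutamide against DMSO, with 95% intervals; orange points passed as higher, the blue point as lower and white points did not pass. Rragd (0.46) and Fnip2 (0.40) lie farthest right, and the intervals of Tfeb, Tfe3, Mitf and Rragb include 0.

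The bases upstream of these genes are shown because the factors bind the E-box CACGTG, written in capitals below. All 9 genes had promoter windows in RefSeq on GRCm38.p6, 14 windows of 300 bases in all (250 before and 50 after a start). CACGTG reads the same on both strands and was in 2 of the 14 windows, those of Fnip1 and Rragc, against 7.15% of 32851 mouse windows. It began 75 bases before the start of Fnip1 and 112 before that of Rragc. Neither holds the longer letters GTCACGTG, searched on both strands (2.25% of all windows), which contain the E-box. The letters TGATGNAA, the core of the element bound by the stress factor ATF4, were searched on both strands and were in none of the 14 (3.97% of all windows). Rragd, which changed most, has no match in its window, and Rragb, which did not pass the test, has 3 E-boxes, beginning 127, 36 and 3 bases before the start, of which the second is part of GTCACGTG on the reverse strand and the last runs past the start, so that it is left in lower case at the end of the bases shown. A match is a description of the letters and not of binding. Bases outside the windows and other letters were not searched, so a window without a match does not mean a gene without a site. The 250 bases before the start of each are given 5′ to 3′ on the gene's strand, at chr11:54437929-54438178 (+) for Fnip1, chr4:123917183-123917432 (+) for Rragc, chr4:32982748-32982997 (+) for Rragd and chrX:153139708-153139957 (+) for Rragb.
Fnip1: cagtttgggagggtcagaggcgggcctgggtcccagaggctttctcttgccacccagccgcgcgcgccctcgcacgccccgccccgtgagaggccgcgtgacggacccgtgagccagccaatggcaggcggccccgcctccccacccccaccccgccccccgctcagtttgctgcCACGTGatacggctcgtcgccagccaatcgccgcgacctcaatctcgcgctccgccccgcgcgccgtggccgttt
Rragc: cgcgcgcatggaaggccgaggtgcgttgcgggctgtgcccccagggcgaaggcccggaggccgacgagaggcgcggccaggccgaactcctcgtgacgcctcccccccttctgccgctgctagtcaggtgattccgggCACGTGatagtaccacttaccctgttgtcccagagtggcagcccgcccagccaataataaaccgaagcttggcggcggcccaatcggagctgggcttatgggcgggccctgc
Rragd: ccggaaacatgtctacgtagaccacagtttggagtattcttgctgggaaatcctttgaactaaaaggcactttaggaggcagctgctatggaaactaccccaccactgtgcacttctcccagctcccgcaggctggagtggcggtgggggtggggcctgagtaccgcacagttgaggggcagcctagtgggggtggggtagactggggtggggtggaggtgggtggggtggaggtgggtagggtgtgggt
Rragb: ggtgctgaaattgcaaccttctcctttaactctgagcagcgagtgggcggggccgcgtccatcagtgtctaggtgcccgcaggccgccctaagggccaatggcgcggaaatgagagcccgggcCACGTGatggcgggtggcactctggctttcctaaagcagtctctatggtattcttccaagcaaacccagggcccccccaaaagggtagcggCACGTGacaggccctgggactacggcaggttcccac

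Levels of different genes can be compared only per length. Per kb of the union of annotated exons, the order in DMSO was Rraga (59.4 ± 3.48 CPM per kb), Rragc (43.8 ± 1.99), Rragb (16.3 ± 0.86), Rragd (16.1 ± 0.397), Fnip2 (10.2 ± 0.14), Flcn (8.43 ± 0.63), Tfe3 (8.43 ± 0.274), Fnip1 (7.76 ± 0.227), Tfeb (2.55 ± 0.187) and Mitf (1.75 ± 0.131). Neighbours whose libraries overlapped were Rragb with Rragd, and Flcn with Tfe3. In enzalutamide Rragd (22.2 ± 0.755 CPM per kb) stood above Rragb (15.9 ± 1.14) with no overlap. There, Flcn (10.7 ± 0.337 CPM per kb) and Fnip1 (9.35 ± 0.888) overlapped, as did Fnip1 and Tfe3 (8.29 ± 0.153). The order depends on the length used. Per kb of the longest coding transcript, Tfe3 came next after Rraga and Rragc in DMSO (23.0 ± 0.748 CPM per kb) and the libraries of those Rag genes overlapped, while Tfeb was at 6.17 ± 0.453. In enzalutamide on that scale Rragc (62.3 ± 2.97 CPM per kb) lay above Rraga (54.8 ± 2.64).

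**Figure D3:**
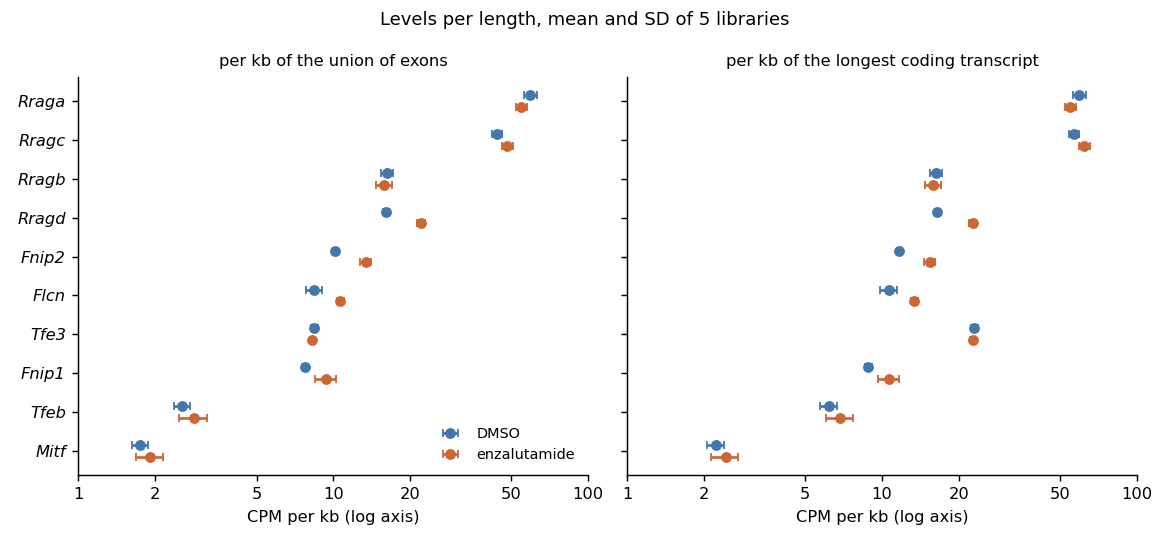
Level of each gene in CPM per kb (log axis), as mean ± SD of 5 DMSO (blue) and 5 enzalutamide (orange) libraries, with length taken as the union of exons (left) or as the longest coding transcript (right). Rraga and Rragc lead on both scales, Tfeb and Mitf are lowest on both, and Tfe3 moves from 8.43 to 23.0 CPM per kb in DMSO between them.

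Partners that can replace each other were compared as shares of their summed counts per kb, which need no library scaling. Rragd made up 27.3, 28.5, 27.2, 25.2 and 26.3% of Rragc and Rragd in DMSO libraries 1 to 5. It made up 31.2, 30.0, 31.96, 30.4 and 33.8% in enzalutamide libraries 1 to 5. No treated library overlapped the DMSO range, and the mean rose by 4.56 percentage points (exact two-sided permutation test, p = 0.00794, adjusted p = 0.0476 over 6 shares, n = 5 each). That is the smallest p that 5 against 5 libraries can give. With 4 against 5 it is 0.0159, and the adjusted p was 0.0952 without any 1 of the 5 DMSO libraries or enzalutamide libraries 1 to 3, and 0.0476 without enzalutamide library 4 or 5. Without both enzalutamide libraries 2 and 5 the difference was 4.27 percentage points (exact permutation test, p = 0.0357, the smallest for 3 against 5, adjusted p = 0.107).

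The Fnip2 share of Fnip1 and Fnip2 was 56.7 ± 1.00% in DMSO and 59.0 ± 1.59% in enzalutamide (exact permutation test, p = 0.0317, adjusted p = 0.0952, n = 5 each). It was higher in 4 of 5 treated libraries than in any DMSO library, and enzalutamide library 5, which was highest in Fnip1, lay at 56.2%. Without enzalutamide library 5 the difference was 2.98 percentage points (exact permutation test, adjusted p = 0.0476). Of Tfeb, Tfe3 and Mitf together, Tfe3 took 66.2 ± 1.15% in DMSO and 63.6 ± 2.71% in enzalutamide (adjusted p = 0.143 by exact permutation test, and 0.0476 without enzalutamide library 4). Tfeb took 20.02 ± 1.2% and 21.7 ± 1.86%, and Mitf 13.8 ± 1.02% and 14.7 ± 1.40% (exact permutation tests, adjusted p = 0.226 and 0.317). Rraga took 78.5 ± 1.29% of Rraga and Rragb in DMSO and 77.5 ± 1.04% in enzalutamide (exact permutation test, adjusted p = 0.286). With all 10 libraries no shift in the makeup of the factors, of the FNIP pair or of the RagA and RagB pair passed the test. The size of a share depends on the length used. Per kb of the longest coding transcript, the DMSO means were 73.3% for Tfe3, 19.6% for Tfeb and 7.08% for Mitf. The Rragd share was then 22.6% in DMSO and 26.7% in enzalutamide, and without any length it was 36.3% and 41.5%.

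**Figure D4:**
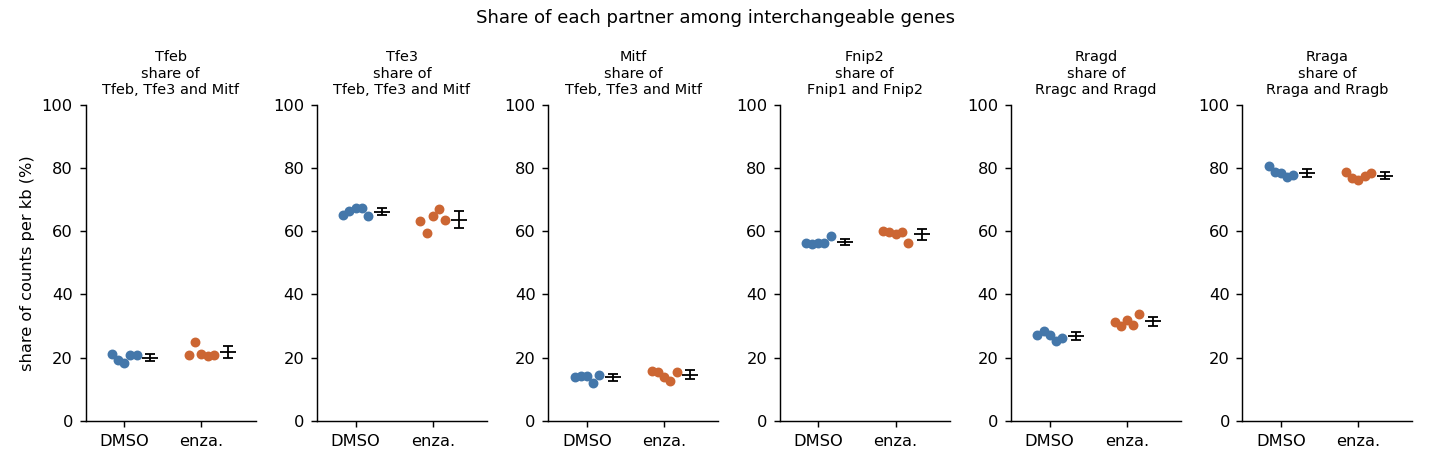
Share (%, axis from 0 to 100) of a gene in the summed counts per kb of the partners named above each panel, in 5 DMSO and 5 enzalutamide (enza.) libraries; points are libraries and bars the mean ± SD. The Rragd share runs from 25.2 to 28.5% in DMSO and from 30.0 to 33.8% in enzalutamide, and the groups overlap in the other panels.

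Genes that CLEAR factors are known to induce were mostly higher in the lysosomal list. For genes of this and the other lists, a lone value in parentheses is the log2 fold change. Of 26 lysosomal targets 19 rose and 0 fell, with a median log2 fold change of 0.22, against 37.8% of all genes called in either direction and a median over all genes of 0.00673. At an unadjusted p under 0.05, 21 were higher and 0 lower, and without enzalutamide libraries 2 and 5, 20 rose and 0 fell. DESeq2 gave 19 and 0, and limma-voom 18 and 0. Hexa, a subunit of the lysosomal hexosaminidase, rose from a mean of 78.3 CPM (SD 3.44, n = 5) to one of 118 CPM (SD 5.97, n = 5), a log2 fold change of 0.59 with an adjusted p of 6.89e-09. The tetraspanin gene Cd63 (0.50) and Mcoln1, the lysosomal calcium channel through which TFEB can be released (0.42), followed. With GC and length trends removed 16 rose and 1 fell, the acid glucosidase gene Gaa, which was named after its values were seen.

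Subunits of the lysosomal proton pump, which are CLEAR genes too, were mixed. Of 12 tested 2 rose and 2 fell, with a median log2 fold change of 0.03. The share called, 33.3%, was near the 37.8% of all genes, so the count is no result about these genes. Atp6v0b (0.20) and Atp6v0e (0.14) of the membrane sector rose, and Atp6v1a and Atp6v1h of the soluble sector had -0.11 and -0.12. The other tested subunits of both sectors did not pass, so no split by sector is drawn. The Atp6v0e log2 fold change kept its call in 12 of 19 alternatives and that of Atp6v1h in 13 of 19. These counts moved with the processing, to 1 to 3 higher and 1 to 4 lower when single libraries were left out (4 lower without enzalutamide library 2), to 6 and 0 under total-count scaling and to 4 and 4 with GC and length trends removed. Among 11 tested autophagy targets the share called, 36.4%, was likewise near the 37.8% of all genes, and 4 rose and 0 fell (4 and 0 at an unadjusted p under 0.05, with DESeq2 and with limma-voom), with a median of 0.10 and 1 lower without enzalutamide library 2. The cargo receptor gene Sqstm1 (0.24), Uvrag, an endosome and autophagosome regulator (0.22), and Map1lc3b, which encodes the autophagosome protein LC3B (0.12), had the lowest adjusted p. Of 5 genes of mitochondrial biogenesis 1 rose and 1 fell, 40% beside 37.8% of all genes. Ppargc1a, the coactivator held down by folliculin in several tissues, rose from 213 ± 5.95 to 278 ± 15.6 CPM (0.38 on the log2 scale, adjusted p = 4.09e-07) and Nrf1 fell (-0.20).

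Upstream of the Rag proteins, changes went both ways. Over all genes tested 19% rose and 18.8% fell, 37.8% in all. Scarce genes are included in these shares, and among genes with a mean CPM of 1 or more the share called was larger (5355 of 11856). Of 7 genes for Rag and Ragulator partners 28.6% were called, fewer than of all genes, and 2 rose and 0 fell (2 and 0 at an unadjusted p under 0.05, with DESeq2 and with limma-voom). These were Slc38a9, the lysosomal arginine sensor (0.21, adjusted p = 0.0171), and Lamtor1, the subunit that anchors Ragulator to the membrane (0.13, adjusted p = 0.0205). The Slc38a9 log2 fold change was 0.16 without enzalutamide libraries 2 and 5 (adjusted p = 0.105). Without enzalutamide library 3 the Slc38a9 log2 fold change had an adjusted p of 0.053 and the Lamtor1 log2 fold change one of 0.0521. That of Lamtor1 was 0.0625 without DMSO library 5 and 0.0597 without enzalutamide library 1. Of 12 genes of the GATOR and KICSTOR complexes, which control RagA and RagB, 3 rose and 3 fell, 50% beside 37.8% of all genes. Sec13 (-0.47) and Wdr59 (-0.37), both of GATOR2, fell, while their partner Wdr24 rose (0.31). In KICSTOR BC048403 rose (0.26) and Itfg2 fell (-0.21). The Depdc5 log2 fold change was 0.11 (GATOR1; adjusted p = 0.033, and 0.0557 to 0.106 when DMSO library 1, 3 or 5 or treated library 1, 3 or 4 was left out).

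Of 5 tested amino acid sensors 2 rose and 1 fell, 60% beside 37.8% of all genes. Sesn2, a leucine sensor induced by stress, rose most, from 105 ± 3.53 to 193 ± 7.55 CPM (0.88 on the log2 scale, adjusted p = 4.65e-12). Lars, the leucyl-tRNA synthetase, rose by 0.48 and Sesn1 fell by 0.16 on the log2 scale. In the complex of C9orf72 and SMCR8, both of which resemble folliculin and FNIP in fold, with WDR41, 2 of 3 genes rose, beside 19% of all genes, and 0 fell (2 and 0 at an unadjusted p under 0.05, with DESeq2 and with limma-voom). They were Smcr8 (0.24) and 3110043O21Rik, the mouse C9orf72 gene (0.25).

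Of 9 genes of mTORC1 and its TSC brake 2 rose and 3 fell, 55.6% beside 37.8% of all genes. Deptor, an inhibitory subunit, rose (0.35), and the core subunit genes Mlst8 and Rptor fell (-0.27 and -0.16). Akt1s1, another inhibitor, had 0.14 (adjusted p = 0.00879), and 0.03 once GC and length trends were removed (0.557). Of 7 tested genes of AMPK and its activating kinase 4 fell and 2 rose, beside 18.8% and 19% of all genes. The subunit genes Prkab1 (-0.31), its paralog Prkab2 (-0.18, named after its values were seen), Prkaa1 (-0.18) and Prkag1 (-0.22) fell. Prkaa2 (0.21), the paralog of Prkaa1, rose, as did Prkag2 (0.22), but the Prkag2 log2 fold change was 0.14 without enzalutamide libraries 2 and 5 (adjusted p = 0.103).

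Among 18 genes whose products modify the factors or hold them in the cytoplasm, 8 fell and 4 rose, beside 18.8% and 19% of all genes, with a median of -0.07. Of the 8 that fell, 5 were Ywha genes, which encode the adaptors that bind phosphorylated TFEB, led by Ywhaz (-0.35, from 544 ± 12.4 to 428 ± 8.38 CPM) and Ywhaq (-0.27). Those that rose were Mapk3, which encodes the kinase ERK1 (0.37), Sfn, another adaptor of the Ywha type (0.62), and the calcineurin catalytic subunit genes Ppp3ca (0.25) and Ppp3cc (0.64). Calcineurin is the phosphatase that frees TFEB. Its genes did not move together. The regulatory subunit gene Ppp3r1 was among those that fell (-0.12, from 315 ± 4.62 to 290 ± 8.77 CPM). Another catalytic subunit gene, Ppp3cb, did not pass (-0.08). Ppp3cc and Sfn were low, with DMSO means of 5.91 and 3.81 CPM and treated means of 9.19 and 5.86 CPM.

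**Figure D5:**
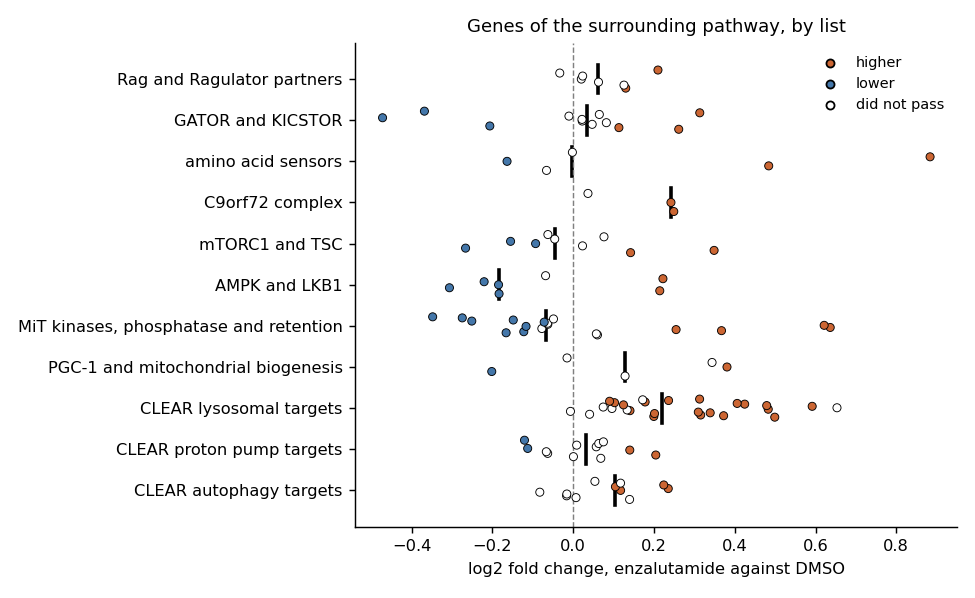
Log2 fold change, enzalutamide against DMSO, of each tested gene in 11 lists around the pathway; orange points passed as higher, blue as lower, white points did not pass, and black bars are list medians. Most lysosomal targets lie to the right of 0, with a median of 0.22, and the AMPK list has a median of -0.18.

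Genes with the pattern most like Rragd were sought among 10195 others with a mean of at least 5 CPM, by the mean absolute difference over 10 libraries in log2 CPM, each gene relative to its own DMSO mean. The nearest were Atf6 (0.0312), Gtpbp2 (0.0319), Tnk2 (0.0357), Nars (0.0369) and Znrf2 (0.0369). Their log2 fold changes were between 0.43 and 0.50. The measure picks genes with a change of like size, so the fold changes of the nearest genes are no separate result. For Rraga the nearest were Hmces (0.03), Pcna (0.0337), Dmap1 (0.0341), Rpl4 (0.0341) and Emg1 (0.0352), with log2 fold changes between -0.13 and -0.09. Of these, the changes of Dmap1 and Emg1 did not pass.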

How the data were processed

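The 10 libraries (5 with 10 μM enzalutamide for 48 h, 5 with DMSO) were grouped by title. The authors deposited whole-number counts per Ensembl gene, 1 column a library. HISAT2, StringTie, DESeq2 and mm10 are named, without role or version, per the submitters' processing notes, and the strand setting is not given in the sources used. A deposited table of scaled values was not used. Genes were filtered with filterByExpr (14156 kept), normalized by TMM and tested with edgeR 4.0.16 (quasi-likelihood, two-sided, Benjamini-Hochberg over all genes, threshold 0.05) in R 4.3.3. SE is the absolute log2 fold change over the square root of F, and ± is the SD over 5 libraries. Shares had exact permutation tests (scipy 1.17.1). Positions and lengths came from GENCODE M21 on GRCm38, which held 96.3% of identifiers. Libraries of a group all differed by more than sampling noise. The edgeR steps were tested on simulated data, with changed genes drawn at random from all genes tested. Of 50 changed genes at each size, 50% were recovered at 1.2-fold, 68% at 1.5-fold, 72% at 2-fold and 90% at 3-fold. Of 147 genes called there, 7 were unchanged.

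The members and lists were chosen with earlier results of these data known. Named were the members, Rragb and Tfec, up to 3 called genes a list by lowest adjusted p, called genes that opposed their list, and the 5 genes most like Rragd and Rraga. Gaa, Prkab2, Ppp3r1, Ppp3cb, Slc24a5, Cela1 and the markers at 0 were named after their values were seen. The alternatives were RLE size factors, total-count scaling, no filter, mean CPM of 1 or more, a replicate block, DESeq2 1.42.0, limma-voom (limma 3.58.1), shares without length and leaving out each library. Removing GC and length trends, using the longest coding transcript and leaving out enzalutamide libraries 2 and 5 together were added after seeing the data.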

Additional observations from a re-analysis of the deposited data

Results flagged for a closer look

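Each gene's 5 libraries of a group, and each share's, were checked for a library far from the others by Dixon's ratio. Of 32 such groups 6 held 1. Chance gives about 1 in 20 independent groups, but these are not independent, since the shares come from the same counts. The 2 rates can therefore not be compared directly. Tfeb was at 19.5 CPM in enzalutamide library 2, with the next at 15.8, and the Tfeb share of the 3 factors there was 25.0%, with the next at 21.3%. Fnip1 was at 52.5 CPM in DMSO library 5, below the next at 55.5, and the Fnip2 share of Fnip1 and Fnip2 there was 58.4%, above the next at 56.4%. The Fnip2 share in enzalutamide library 5 was 56.2%, below the next at 59.1%. The Mitf share in DMSO library 4 was 12.0%, below the next at 13.8%.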

How the results depend on the processing

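The 5 rises (Flcn, Fnip1, Fnip2, Rragc and Rragd) kept their direction and call in all 19 alternatives, with log2 fold changes of 0.45 to 0.49 for Rragd, 0.39 to 0.44 for Fnip2, 0.27 to 0.38 for Flcn, 0.22 to 0.31 for Fnip1 and 0.12 to 0.18 for Rragc. Tfeb (0.06 to 0.19) and Mitf (0.04 to 0.19) passed in none. The Tfe3 log2 fold change was 0.0108 under total-count scaling, and -0.0951 without GC and length trends, where it passed. The Rraga log2 fold change lost its call under total-count scaling (-0.0812), with no filter (-0.115), in limma-voom (-0.115), without GC and length trends (-0.108) and without both enzalutamide libraries 2 and 5 (-0.107), and was -0.132 to -0.0926 when 1 library was left out. The cause was not tested. The Rragb log2 fold change was 0.00111 under total-count scaling and -0.0632 to 0.00368 when 1 library was left out, above 0 only without enzalutamide library 5. Leaving out 1 library gave a Rragd share difference of 3.98 to 4.97 percentage points, a Tfe3 share difference of -3.41 to -1.55 and a Fnip2 share difference of 2.04 to 2.98. Without both enzalutamide libraries 2 and 5 the Rragd share difference was 4.27 (adjusted p = 0.107). With 4 against 5 libraries the Rragd share alone cannot reach an adjusted p under 0.0952. The deviations of same-numbered libraries had correlations of -0.00849 to 0.0451, and 3 of 5 were most like their own number. Small correlations beside 3 own-number matches point different ways, so this check cannot decide whether the numbers pair libraries. With the replicate block 6 members were called, as without it, and the Rragd share difference of 4.56 had an adjusted p of 0.1875 by exact sign flips, where 5 pairs cannot give a p under 0.0625. The Depdc5 log2 fold change lost its call under the block (adjusted p = 0.062). Under total-count scaling 60.7% of all calls were higher, against 50.3%, and the median of all genes moved by 0.0345.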
